A study of Mus musculus with 6 samples.

Results

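The vacuolar proton pump (V-ATPase) transcripts described here are the 9 genes of its membrane sector and accessory subunits, Atp6v0a1, Atp6v0a2, Atp6v0b, Atp6v0c, Atp6v0d1, Atp6v0d2, Atp6v0e, Atp6ap1 and Atp6ap2. They were taken by symbol from the 46603 genes in the deposited count tables, and all 9 had enough counts to be tested. The cells were macrophages grown from the bone marrow of C57BL/6/J mice aged 7 weeks in 20% L929-conditioned medium, detached on day 6 and plated in wells of 800000 cells. Medium conditioned by cancer cells was added 6 h later, with its lipids in 3 samples and without lipids in the other 3. No genotype other than this strain, and no untreated culture, is among the 6 samples, so both groups had cancer cell-conditioned medium. The sources used here do not give the cancer cell line, the lipid removal or the exposure time. They also do not say whether replicates are separate mice or wells, so the spread behind each p-value may be technical only. Libraries held 20778651 to 25323053 counts with lipids and 19429022 to 22330119 counts without. The library labelled replicate 1 without lipids stood apart from the rest on the second principal component (21.8% of variance), at -22.96 against -1.17 to 13.95, and its values are named below wherever they set a result.

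The V-ATPase is a rotary machine that uses ATP to move protons into lysosomes, endosomes and the Golgi, and macrophages use it to acidify the compartments in which they break down what they ingest. Its V1 sector outside the membrane hydrolyses ATP and turns a ring of proteolipids in the V0 sector, past which the protons move. V0 holds subunit a, subunit d, the proteolipids c and c'', and the small subunit e. Several of these positions can be filled by products of different genes, and Atp6v0d2, which encodes the d2 form of subunit d, is known for its high expression in mouse osteoclasts and in macrophages.

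Subunit d comes from a pair of genes, and whether reads can be told apart between them bears on every result for Atp6v0d2. The coding sequences of Atp6v0d2 (1053 bases with the stop codon) and Atp6v0d1 (1056 bases) were identical at 66.4% of aligned positions, and the longest run that they shared exactly was 17 bases. The 60 coding bases around that run, positions 139 to 198 counted from the A of the start codon in GENCODE M21, differed at 16 positions, shown in capitals.
Atp6v0d2: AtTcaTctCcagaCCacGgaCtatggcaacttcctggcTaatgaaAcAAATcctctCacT
Atp6v0d1: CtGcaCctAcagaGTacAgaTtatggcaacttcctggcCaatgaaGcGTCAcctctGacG
Atp6v0c was the opposite case. Its coding sequence of 468 bases shared an exact run of 354 bases with the processed pseudogene Atp6v0c-ps2, which was itself assigned 9 to 24 counts per library, and a run of 90 bases with Atp6v0c-ps1. Counts of Atp6v0c are therefore uncertain, since reads inside those runs fit both places.

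Promoter windows from 250 bases before to 50 after the start site (RefSeq, GRCm38.p6) were held for 7 of the 9 members, in 9 windows. Atp6v0c had 3 of these windows. No window was held for Atp6v0a2 or Atp6v0d2, so their promoters were not searched. They were searched for CACGTG, the E-box bound by the MiT/TFE factors that drive lysosomal genes, for the related CATGTG, and for the longer CLEAR palindrome, which contains CACGTG, each on both strands. CACGTG occurred in 3 of the 9 windows, those of Atp6v0b, Atp6v0d1 and Atp6v0e, against 7.15% of all 32851 promoter windows. CATGTG occurred in 1 of 3 windows of Atp6v0c (14.2% of all windows) and the CLEAR palindrome in 0 of the 9 (0.326% of all). A match describes the letters only. The 3 windows with CACGTG are printed 5' to 3' on the gene's strand with the motif in capitals. They lie at chr4:117887280-117887579 (Atp6v0b, minus strand), chr8:105566015-105566314 (Atp6v0d1, minus strand) and chr17:26676146-26676445 (Atp6v0e, plus strand).
Atp6v0b: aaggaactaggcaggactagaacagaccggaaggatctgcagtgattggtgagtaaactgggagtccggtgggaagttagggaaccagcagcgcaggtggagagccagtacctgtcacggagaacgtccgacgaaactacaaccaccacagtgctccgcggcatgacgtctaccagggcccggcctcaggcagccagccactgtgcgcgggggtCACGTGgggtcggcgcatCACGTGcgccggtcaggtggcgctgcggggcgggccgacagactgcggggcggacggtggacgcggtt
Atp6v0d1: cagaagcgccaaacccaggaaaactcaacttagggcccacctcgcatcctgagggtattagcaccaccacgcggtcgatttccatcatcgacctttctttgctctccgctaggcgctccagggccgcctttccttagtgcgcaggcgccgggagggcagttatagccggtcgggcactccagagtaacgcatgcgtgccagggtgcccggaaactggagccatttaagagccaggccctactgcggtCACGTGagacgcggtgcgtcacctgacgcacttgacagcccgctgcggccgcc
Atp6v0e: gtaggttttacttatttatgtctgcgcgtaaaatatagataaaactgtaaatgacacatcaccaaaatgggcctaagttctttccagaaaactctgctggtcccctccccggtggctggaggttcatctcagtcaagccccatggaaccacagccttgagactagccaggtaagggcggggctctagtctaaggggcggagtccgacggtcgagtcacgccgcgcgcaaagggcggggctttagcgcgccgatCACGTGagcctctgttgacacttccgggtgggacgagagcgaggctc
Counted with the first transcribed base as 0, the motif began at -36 and -18 in Atp6v0b, at -3 in Atp6v0d1 and at 3 in Atp6v0e. Of these genes, Atp6v0d1 and Atp6v0e passed the test below and Atp6v0b did not. Among the searched members with 0 CACGTG, Atp6ap2 passed, and Atp6v0a1, Atp6v0c and Atp6ap1 did not. Atp6v0d2 passed but was not searched. Tcirg1, outside the members and also lower with lipids below, had 0 CACGTG in its 3 windows. A link between motif and call was not tested.

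The question was whether V0 transcripts differed between macrophages in medium with and without lipids. With lipids, 4 of the 9 members were lower, Atp6v0d2, Atp6v0e, Atp6v0d1 and Atp6ap2, and 0 were higher (edgeR quasi-likelihood test, adjusted p under 0.05 over 12767 genes), where 6.87% of all tested genes were lower and 4.58% higher. At an unadjusted p under 0.05 the counts were 6 lower and 0 higher, and DESeq2 gave 4 and 0. That looser threshold passes many more of all genes. The gene ranked 3338th of all 12767 by edgeR p, in either direction, had an unadjusted p of 0.0476. The shares of all genes given here and with the other lists are for adjusted p. The count at an adjusted p under 0.05 depended on single libraries, with 7 lower members when replicate 1 without lipids was left out and 2 when replicate 1 or 2 with lipids was. The number of all genes lower lay between 423 and 1975 over all such fits. All 9 had a negative log2 fold change (with lipids minus without), with a median of -0.23 against -0.0032 over all genes. The members differed widely in size, from -0.08 for Atp6v0a2 to -1.51 for Atp6v0d2. These are bulk samples, so fewer cells of a type and less RNA per cell cannot be told apart.

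**Figure D1:**
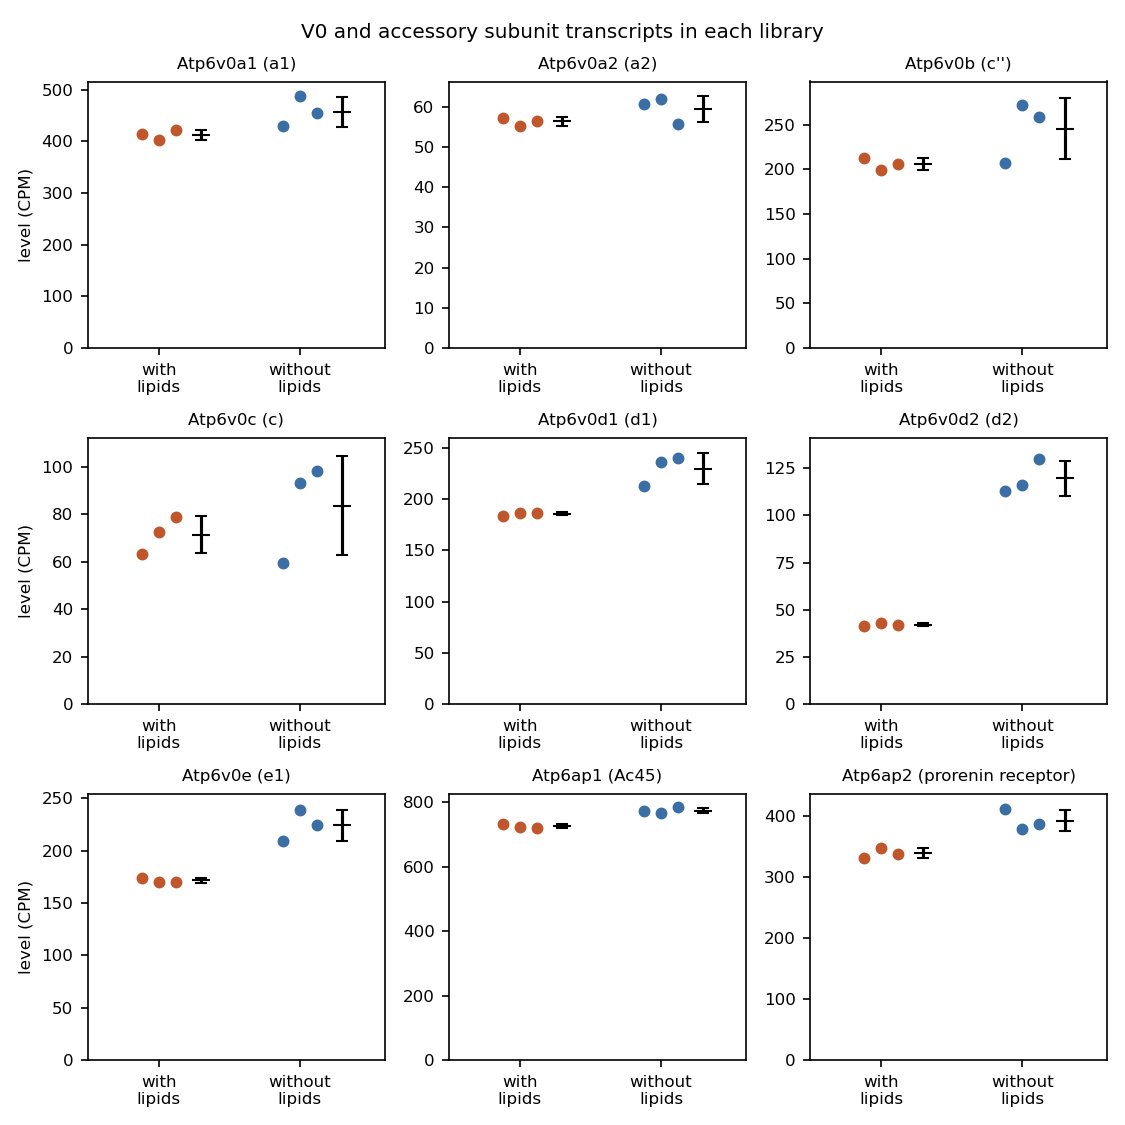
Level of each member in every library, in CPM (vertical axes from 0), with lipids on the left and without lipids on the right of each panel; points are libraries in the order replicate 1 to 3, and the bars are mean and SD (n = 3). Atp6v0d2 separates the groups by far more than their spread, and replicate 1 without lipids is the low blue point for Atp6v0b and Atp6v0c.

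Subunit d, which couples the rotor of V0 to the central stalk of V1, held the largest difference among the members. Atp6v0d2 (ENSMUSG00000028238, chromosome 4, 19876841 to 19922605, minus strand, GRCm38) was at 41.3, 43.0 and 42.0 counts per 1000000 (CPM) with lipids, against 113, 116 and 130.1 CPM without. The groups were far apart and each was tight, with a coefficient of variation of 2.13% with lipids and 7.70% without. The log2 fold change was -1.51 (SE 0.07, 95% interval -1.66 to -1.35, edgeR adjusted p = 1.92e-06), a level 64.8% lower with lipids. Among 12767 tested genes this was the 32nd lowest log2 fold change and the 2nd smallest p. Every alternative kept the call, with log2 fold changes from -1.60 to -1.43.

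The other d gene moved the same way and much less. Atp6v0d1 (ENSMUSG00000013160, chromosome 8, 105524465 to 105566047, minus strand), the form found in most tissues, was at 184, 187 and 187 CPM with lipids, against 213, 236 and 240.3 CPM without. All libraries with lipids lay below all those without. Its log2 fold change was -0.31 (SE 0.06, edgeR adjusted p = 0.00867). Leaving out replicate 1 or 2 with lipids ended the call (edgeR adjusted p = 0.0532 and 0.0555), at values of -0.30 and -0.31.

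As 1 position is filled by either gene, their shares were compared per kilobase of exon. Atp6v0d2 made up 12.9%, 13.2% and 12.9% of d-subunit transcripts with lipids, against 25.9%, 24.5% and 26.3% without. The groups did not overlap, and the mean was 13.0 ± 0.17% with lipids and 25.6 ± 0.98% without (SD, n = 3 each). The exact two-sided permutation p was 0.1, the smallest that 3 against 3 allow. Per kilobase of coding sequence the shares were higher, 18.5 ± 0.22% with lipids and 34.3 ± 1.16% without. The log2 ratio of Atp6v0d2 to Atp6v0d1, in which the length cancels from the difference, was lower with lipids by 1.20 on average, at -2.74 ± 0.02 against -1.54 ± 0.07. Atp6v0d1 thus stayed the more abundant d transcript per length in all 6 libraries, by either length.

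**Figure D2:**
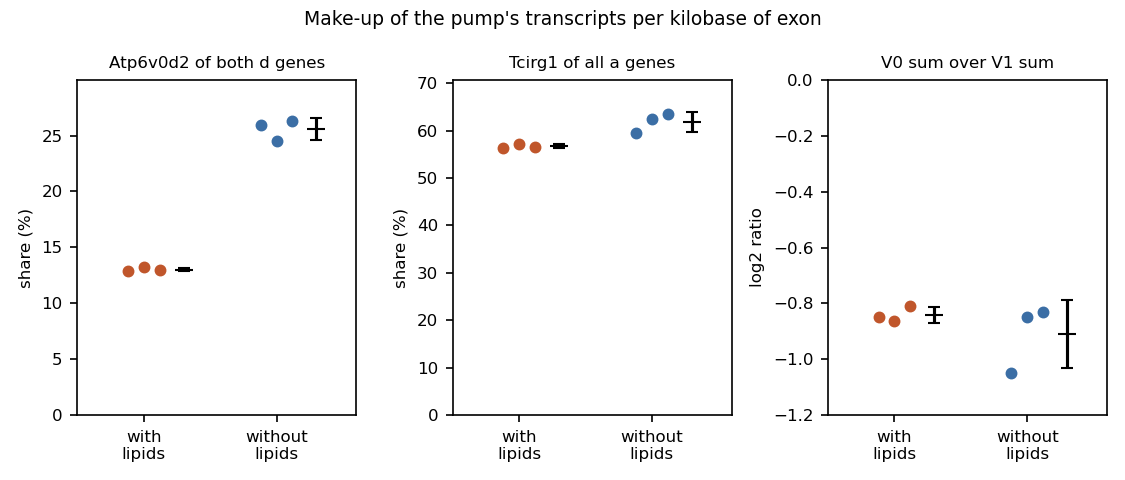
Share of Atp6v0d2 among both d genes and of Tcirg1 among all a genes (percent of CPM per kilobase of exon) and the log2 ratio of summed V0 member (without Tcirg1) to summed V1 transcripts, in each library with lipids (left) and without (right), with mean and SD (n = 3). Atp6v0d2 averaged 13.0% with lipids against 25.6% without, while the V0 to V1 ratio overlapped between groups.

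The proteolipid ring, whose subunits carry the protons, gave no call. Atp6v0b (ENSMUSG00000033379, chromosome 4, 117884326 to 117887333, minus strand), which encodes c'', was at 213, 199 and 205 CPM with lipids, against 207, 272 and 258 CPM without. Replicate 1 without lipids lay among the libraries with lipids and the other 2 above them. The log2 fold change was -0.26 (SE 0.09, edgeR adjusted p = 0.0969). Atp6v0c (ENSMUSG00000024121, chromosome 17, 24163866 to 24169702, minus strand), which encodes c, was at 63.2, 72.4 and 78.8 CPM with lipids, against 59.6, 93.4 and 98.3 CPM without. Again replicate 1 without lipids was low, here the lowest of all 6, and the log2 fold change was -0.23 (SE 0.16, edgeR adjusted p = 0.385). Without that library both genes passed, at -0.36 (edgeR adjusted p = 0.000201) for Atp6v0b and -0.42 (0.00138) for Atp6v0c.

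Values of base composition are given beside these, and their part in the results was not tested. The transcripts of Atp6v0b and Atp6v0c have 56.3% and 55.9% G and C, against 41.4% for Atp6v0d2 and 41.6% for Atp6ap2. In replicate 1 without lipids, log2 levels lay from the mean of its own group by -0.24 for Atp6v0b and -0.46 for Atp6v0c, against -0.08 for Atp6v0d2 and 0.07 for Atp6ap2. The other members, with 47.0% to 53.1% G and C, lay between -0.11 (Atp6v0d1, 53.1%) and 0.03 (Atp6v0a2, 50.8%), with Atp6v0e (47.0%) at -0.10. Outside the members, only Tcirg1 (58.2%), Lamtor4 (56.7%) and Atp6v1f (54.6%) were read in this way. They lay at -0.22, -0.28 and -0.26. These genes were picked and do not stand for all genes rich in G and C. Among genes named below, replicate 1 was the lowest library without lipids for Tfeb (61.3%) and Tfe3 (55.5%). It was not the lowest for Tmem9 (55.2%) or Atp5k (55.1%). With a correction for GC content and length the fold changes of Atp6v0b and Atp6v0c were -0.14 and -0.13 (edgeR adjusted p = 0.0712 and 0.51), and that of Atp6v0d2 was -1.60. Atp6v0b also shares 243 exon bases with the antisense gene Gm12841, which was assigned 0 counts in every library. The value of Atp6v0b is uncertain if counting ignored strand, and those 0 counts do not settle this.

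Subunit a forms the path by which protons cross the membrane, and its isoforms direct the pump to different membranes. Atp6v0a1 (ENSMUSG00000019302, chromosome 11, 101009452 to 101063719, plus strand) was at 414, 402 and 421 CPM with lipids, against 429, 487 and 455 CPM without. The groups did not overlap but lay close, and the log2 fold change of -0.15 (SE 0.06, 95% interval -0.28 to -0.01) did not pass (edgeR adjusted p = 0.147). It passed once replicate 1 without lipids was left out, at -0.19 (edgeR adjusted p = 0.0119). Atp6v0a2 (ENSMUSG00000038023, chromosome 5, 124628576 to 124724455, plus strand), known from the Golgi and endosomes, was at 57.4, 55.2 and 56.6 CPM with lipids, against 60.7, 62.0 and 55.7 CPM without. The groups overlapped, at -0.08 (95% interval -0.22 to 0.07, edgeR adjusted p = 0.499), and with library totals alone the value was 0.00013. Atp6v0a2 shares 663 exon bases with the antisense gene 4930404A12Rik, which was assigned 0 counts. Its value is uncertain if counting ignored strand, and the 0 counts do not settle this.

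The a3 isoform, which resides on macrophage and osteoclast lysosomes, is encoded by Tcirg1, which lies outside the 9 members. Tcirg1 (ENSMUSG00000001750, chromosome 19, 3896050 to 3907133, minus strand) was at 426, 427 and 435 CPM with lipids, against 503, 638 and 621 CPM without, which gives a log2 difference of -0.45 (SE 0.08, edgeR adjusted p = 0.00524). Its share of a-subunit transcripts per kilobase of exon was 56.3%, 57.1% and 56.5% with lipids, against 59.5%, 62.4% and 63.5% without. The share was lower with lipids in every library, by 5.13 percentage points on average (exact permutation p = 0.1, the smallest possible). The share of Atp6v0a1 was 38.2 ± 0.36% with lipids and 33.9 ± 1.55% without, and that of Atp6v0a2 5.10 ± 0.09% and 4.32 ± 0.53%. Atp6v0a4, the a4 isoform known from kidney, had 1 count in 1 library without lipids and 0 in the other 5, where 0 allows up to 0.115 to 0.159 CPM for counting error alone.

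Subunit e, a small membrane protein, comes here from Atp6v0e, which encodes e1 (ENSMUSG00000015575, chromosome 17, 26663231 to 26699647, plus strand). Atp6v0e was at 174, 170.4 and 169.7 CPM with lipids, against 209, 239 and 225 CPM without. The libraries with lipids lay close together and below all those without. The log2 fold change was -0.39 (SE 0.06, edgeR adjusted p = 0.00247), and every alternative kept the call, with values from -0.43 to -0.31. The e2 gene Atp6v0e2 was near the detection limit in both groups, at 0.308 to 0.375 CPM with lipids and 0.316 to 0.597 CPM without.

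The accessory subunits are membrane proteins that help the pump assemble. Atp6ap1 (ENSMUSG00000019087, chromosome X, 74297097 to 74304721, plus strand) encodes Ac45 and was at 733, 723 and 720.2 CPM with lipids, against 772, 767 and 785 CPM without. The groups did not overlap, yet the difference was small, at -0.09 (SE 0.05, 95% interval -0.21 to 0.02, edgeR adjusted p = 0.265). Atp6ap2 (ENSMUSG00000031007, chromosome X, 12587801 to 12617049, plus strand), also known as the prorenin receptor, was at 331, 347 and 338 CPM with lipids, against 412, 378 and 387 CPM without. Its log2 fold change was -0.21 (SE 0.06, edgeR adjusted p = 0.0341). The call did not hold in 7 of 16 alternatives. Among these were library totals alone (-0.13, edgeR adjusted p = 0.146) and totals without the 20 most abundant genes (0.0719). Others were fits that left out replicate 1, 2 or 3 with lipids (0.137, 0.122 and 0.152) or replicate 2 without lipids (0.0613).

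Across the members, 6 of 9 had all libraries with lipids below all those without, where 15.8% of tested genes did so and 30.5% were apart in either direction. The coefficient of variation over replicates was smaller with lipids for all 9 members, as it was for 74.2% of all tested genes, and the difference was not tested. Examples of this coefficient are 0.869% and 6.52% for Atp6v0d1 and 1.41% and 6.57% for Atp6v0e, with lipids and without. Replicate 1 without lipids was the lowest of its group for 6 of the 9. Levels of different genes were compared per length. The order of levels, in CPM per kilobase of exon, was Atp6ap1, Atp6ap2, Atp6v0d1, Atp6v0b, Atp6v0a1, Atp6v0e, Atp6v0c, Atp6v0d2 and Atp6v0a2 with lipids, running from 239.7 ± 2.2 to 8.38 ± 0.16. Without lipids the order was the same but for Atp6v0d2, which stood above Atp6v0c, at 44.1 ± 3.4 against 24.7 ± 6.2 CPM per kilobase. With lipids Atp6v0d2 was at 15.5 ± 0.33 and Atp6v0c at 21.1 ± 2.3. Atp6v0d1 and Atp6v0b overlapped in both groups, and the other neighbouring members did not. Per kilobase of coding sequence, Atp6v0c stood above Atp6v0d2 in both groups, at 154 ± 16.9 against 40.1 ± 0.85 with lipids and 180.1 ± 45.3 against 114.0 ± 8.8 without, so that crossing depended on the length used.

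**Figure D3:**
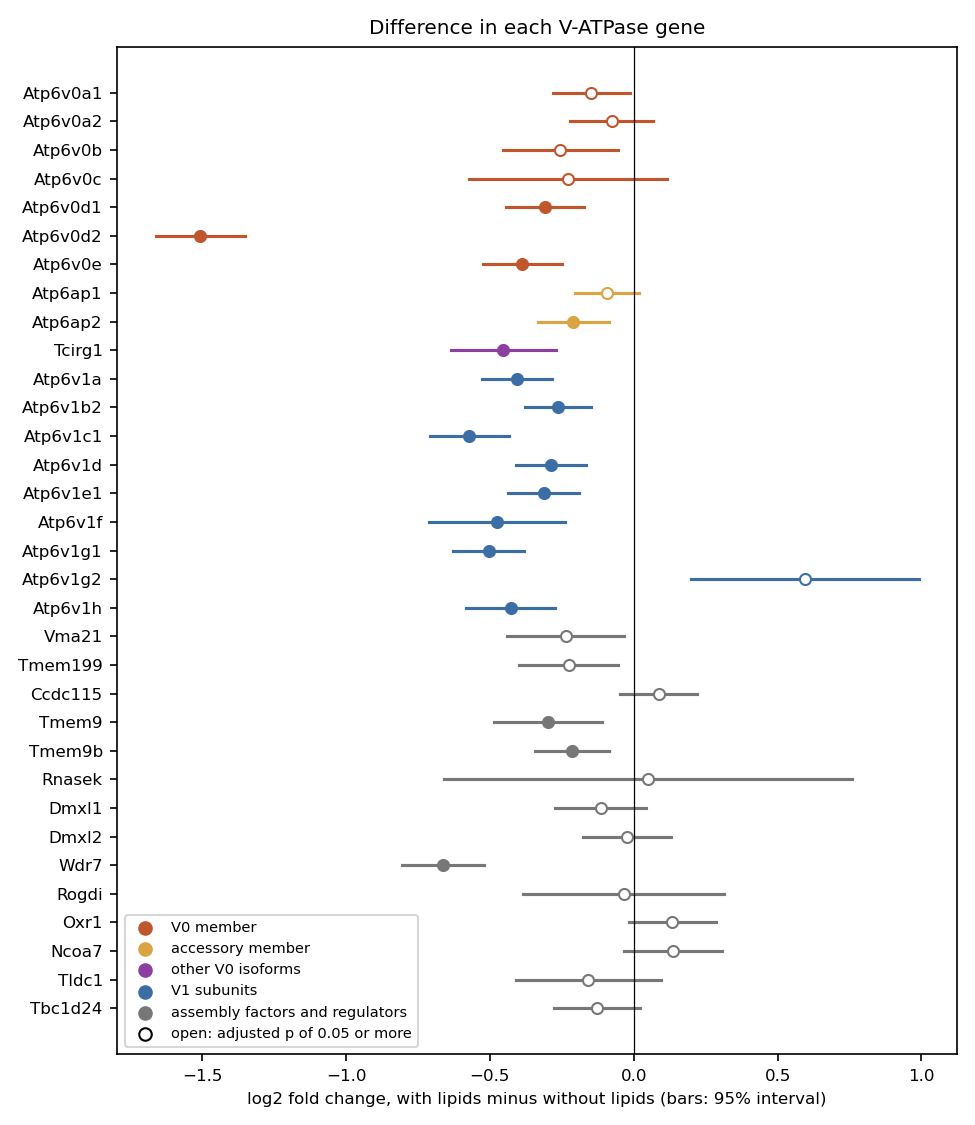
Log2 fold change, with lipids minus without (horizontal axis, points with 95% intervals), for each tested V-ATPase gene, coloured by sector; filled points passed an adjusted p of 0.05. Atp6v0d2 lies alone near -1.5, and the called V1 subunits lie between -0.57 and -0.26.

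The V1 sector, which hydrolyses ATP, was lower with lipids in 8 of its 9 tested subunits, against 6.87% of all genes, and higher in 0 (1 at an unadjusted p under 0.05, 0 by DESeq2). The median log2 fold change of the 9 was -0.41. Atp6v1a, the catalytic A subunit, averaged 1002 ± 22.5 CPM with lipids, against 1328 ± 47.0 CPM without (SD, n = 3 each), and its log2 fold change was -0.41 with an SE of 0.05 (edgeR adjusted p = 0.000898). Atp6v1c1, which joins the stators to V0, had the lowest value at -0.57 (SE 0.06, edgeR adjusted p = 0.000235), followed by Atp6v1g1 at -0.50, Atp6v1f at -0.48 and Atp6v1h at -0.43. Atp6v1e1 was at -0.31, Atp6v1d at -0.29 and Atp6v1b2 at -0.26. When replicate 2 or 3 with lipids was left out, 5 of the 9 passed.

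The member that did not pass was Atp6v1g2, an isoform of G known from neurons, at 5.16, 3.89 and 5.20 CPM with lipids, against 2.63, 2.87 and 3.81 CPM without. Its log2 fold change of 0.59 (edgeR adjusted p = 0.0581) had the opposite sign, and it passed in 7 of 16 alternatives, with values from 0.49 to 0.78 over all of them. It shares 144 exon bases with Nfkbil1 on the other strand, so the value is uncertain if counting ignored strand. Atp6v1h and Atp6v1e1 above have the same limit. They share 127 exon bases with Rgs20 and 32 with Slc25a18, each on the other strand. Of the 4 V1 genes below the filter, Atp6v1b1, Atp6v1e2 and Atp6v1g3 had 0 counts in all libraries and Atp6v1c2 had at most 0.106 CPM.

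Whether V0 and V1 differed in their difference was asked with the log2 ratio of the 7 V0 members' summed CPM per kilobase to that of V1. The V0 sum leaves out Tcirg1, which is not a member. The ratio was -0.85, -0.86 and -0.81 with lipids, against -1.05, -0.85 and -0.83 without. Replicate 1 without lipids was the lowest and the other 5 lay together, and the difference of 0.07 did not exceed the spread (exact permutation p = 0.5). Without that library it was 0.00071.

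Among 14 tested assembly factors and regulators of the pump, 3 were lower with lipids and 0 higher, beside 6.87% and 4.58% of all genes (0 higher at an unadjusted p under 0.05 and 0 by DESeq2), with a median of -0.12. With limma-voom, and when replicate 1 without lipids was left out, 2 were higher. Wdr7, which acts with the Dmxl proteins to bring V1 and V0 together, averaged 91.3 ± 2.5 CPM with lipids, against 145 ± 9.7 CPM without, and differed by -0.66 on the log2 scale (SE 0.07, edgeR adjusted p = 0.00011). Tmem9b at -0.22 and Tmem9, a lysosomal membrane protein that binds the pump, at -0.30 passed at adjusted p-values of 0.038 and 0.0472 (edgeR), and in 9 and 13 of 16 alternatives they did not. Wdr7 was the single call when any 1 of the libraries with lipids, or replicate 2 without, was left out. The assembly chaperone genes Vma21 and Tmem199 were at -0.24 and -0.23 (edgeR adjusted p = 0.13 and 0.089). Rnasek, a membrane protein that copurifies with V0, held 7 to 15 counts per library and shares 599 exon bases with Gm21988 on the same strand, so its counts are uncertain.

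The MiT/TFE transcription factors bind the E-box searched for above. None of the 4 passed in either direction (edgeR, 1 lower and 1 higher at an unadjusted p under 0.05, 1 lower and 0 higher by DESeq2). Tfeb was at 22.3, 20.97 and 22.3 CPM with lipids, against 21.4, 36.7 and 32.3 CPM without, so that replicate 1 without lipids lay among the libraries with lipids and the other 2 above. Its log2 fold change was -0.46 (SE 0.16, edgeR adjusted p = 0.0833), and without that library -0.65 (3.99e-05). Tfeb passed in 7 of 16 alternatives, with values from -0.65 to -0.30 over all of them, and Tfec in 3, with values from 0.15 to 0.32. Mitf was at 0.02, Tfe3 at 0.02 and Tfec at 0.24 (edgeR adjusted p = 0.894, 0.882 and 0.0895), and the signs of Mitf and Tfe3 were not stable across alternatives.

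As Atp6v0d2 is known from osteoclasts, genes of that cell type were read beside it. Of 9 tested osteoclast-type genes 4 were lower with lipids and 0 higher, beside 6.87% and 4.58% of all genes (1 higher at an unadjusted p under 0.05 and 0 by DESeq2), with a median of -0.27. Clcn7, the lysosomal chloride-proton exchanger, averaged 209 ± 6.2 CPM with lipids, against 319 ± 12.4 CPM without (log2 fold change -0.61, edgeR adjusted p = 7.85e-05). Itgb3, integrin beta 3, averaged 4.94 ± 0.42 CPM with lipids and 9.58 ± 0.76 CPM without (-0.95, edgeR adjusted p = 0.000547). Ctsk, cathepsin K, averaged 6.51 ± 1.01 CPM with lipids and 12.2 ± 0.61 CPM without (-0.90, edgeR adjusted p = 0.000964). The fourth was Acp5, the acid phosphatase TRAP, at -0.76 (edgeR adjusted p = 0.0133). Of the 5 that did not pass, Tnfrsf11a, which encodes the receptor RANK, averaged 176 ± 12.4 CPM with lipids and 148 ± 16.0 CPM without, at 0.25 (edgeR adjusted p = 0.0783). Nfatc1, the transcription factor of osteoclast formation, was at 0.02, Dcstamp, needed for cell fusion, at -0.07, Ostm1, the partner of Clcn7, at -0.17, and Mmp9, a matrix protease, at -0.27. The count of higher genes was 1 with library totals alone, with totals without the 20 most abundant genes, without the filter, with limma-voom and when replicate 1 without lipids was left out. Of 5 osteoclast markers, Calcr was at 0 in all libraries and Ocstamp and Oscar at no more than 0.265 CPM, and the markers summed to 8.14 to 10.1 CPM with lipids and 16.1 to 16.5 CPM without. Their part in the difference of Atp6v0d2 was not tested.

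The culture was read as macrophage, with all 8 macrophage markers tested and summed levels of 29207 to 29564 CPM with lipids and 29525 to 34406 CPM without. Of these 8, Itgam and Fcgr1 were higher and Cd68 lower (edgeR). Neutrophil, B cell, mast cell, dendritic and erythroid markers summed to at most 1.40 CPM in each list in any library. Fibroblast and stroma markers summed to 98.4 to 106 CPM and 98.4 to 136 CPM, megakaryocyte and platelet markers to 416 to 431 CPM and 222 to 258 CPM, through Pf4 and Ppbp, and the T and NK list to 6.20 to 7.07 CPM and 11.1 to 17.4 CPM, through Cd4, with lipids and without in each case. Cd3e and Cd8a were at 0. The part of other cells in the V0 results was not tested.

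The genes whose pattern over the 6 libraries lay nearest to that of Atp6v0d2 were found by the root mean square difference of log2 CPM, each centred on its own mean, over 8458 protein-coding genes whose mean was 10 CPM or more. They were Mcoln3 (0.10), Fabp5 (0.12), Vwf (0.16), Gpnmb (0.16) and Bhlhe40 (0.17). Their log2 fold changes lay between -1.61 and -1.23. With 2 tight groups this distance mostly follows the size of the group difference, and it does not show a shared pattern within groups. Gpnmb was at 4664, 4912 and 4809 CPM with lipids, against 10539, 11959 and 11157 CPM without. Mcoln3, an endolysosomal cation channel, was at 10.4, 9.85 and 8.66 CPM with lipids, against 28.4, 28.7 and 31.0 CPM without. Fabp5, a fatty acid-binding protein, was at 223, 259 and 248 CPM with lipids, against 619, 613 and 606 CPM without. Vwf, von Willebrand factor, was at 39.7, 36.9 and 39.8 CPM with lipids, against 80.0, 94.2 and 100.8 CPM without, and Bhlhe40, a transcription factor, at 11.0, 12.2 and 11.7 CPM with lipids, against 30.9, 34.1 and 26.7 CPM without. The other members, whose fold changes were smaller, were not close, with Atp6v0e the nearest at 0.56 and Atp6v0a2 the farthest at 0.72.

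**Figure D4:**
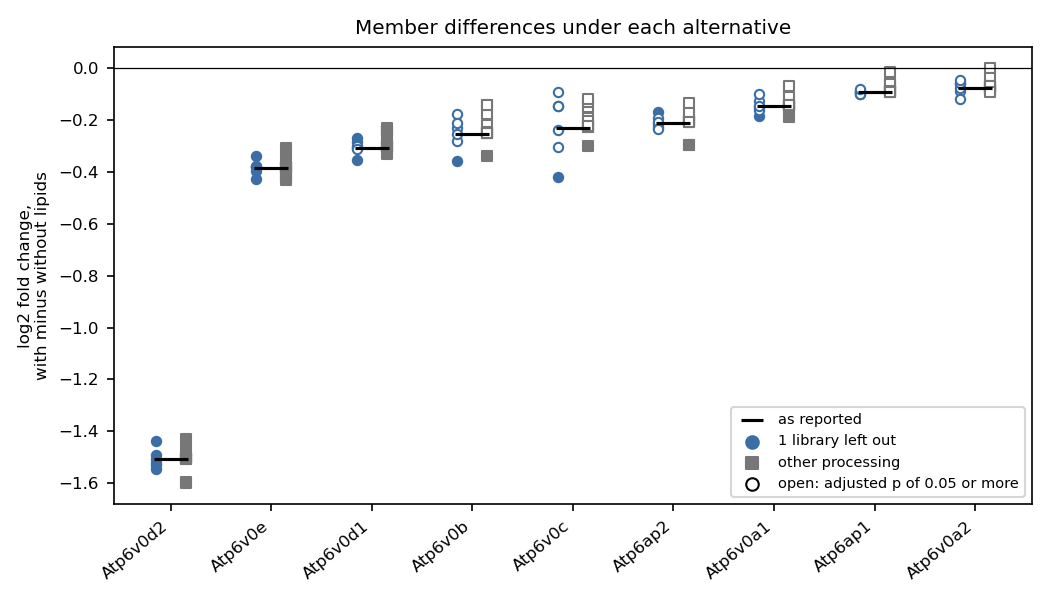
Log2 fold change of each member (vertical axis, with lipids minus without) as reported (black bar), with 1 library left out (blue circles) and under other processing (grey squares); open symbols did not pass an adjusted p of 0.05. Atp6v0d2 and Atp6v0e passed throughout, Atp6v0d1 failed in 2 settings, and Atp6v0a2 and Atp6ap1 passed in none.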

How the data were processed

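The authors deposited raw counts per Ensembl gene for each library, 46603 rows with 0 rows for unassigned reads. Tools listed in the submitters' processing notes, with no role or order, are HTSeq, TopHat2 2.1.0 and DESeq2, and the listed build is GRCm38.p4. The sources used here do not give the strand setting or annotation release. Libraries were stranded poly(A) preparations, per the labels' protocols. Names, lengths and GC content came from GENCODE M21 (GRCm38), which matched 46005 rows. Unmatched rows held 0.161% to 0.178% of counts.

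Genes were filtered with filterByExpr (minimum count 10, minimum total 15), scaled by TMM and tested with edgeR 4.0.16 in R 4.3.3 (quasi-likelihood F test, two-sided, Benjamini-Hochberg over 12767 genes, threshold 0.05). Standard errors came from the F statistic and intervals are 95%. CPM uses TMM-scaled totals, and CPM per kilobase divides by the union of exons. Shares were compared by exact permutation (scipy 1.17.1), and sequences aligned with Biopython 1.88. The steps were tested on simulated counts, where 30% of changes of 1.25-fold and 68% of changes of 1.5-fold were recovered. Of 158 calls there, 12 were false.

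The members and lists were chosen with earlier results of these data known. Named genes were all members, the tested V1 and other V0 genes, up to 3 called genes of each further list by smallest p, and the 5 nearest profiles. Cell type markers, the osteoclast-type genes past the first 3, Lamtor3, Lamtor4, Tmem199, Vma21, Rnasek and the MiT/TFE genes are named beside their lists after their values were seen. Alternatives were other scalings, filters and tools (DESeq2 1.42.0, limma 3.58.1), a replicate block, a GC and length offset, coding lengths and each library left out.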

Additional observations from a re-analysis of the deposited data

How the results depend on the processing

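Calls for the 9 members ranged from 2 to 7 lower and 0 higher when 1 library was left out, with 7 when replicate 1 without lipids was left out and 2 when replicate 1 or 2 with lipids was. With limma-voom and sample quality weights 7 were lower, where that library had the lowest weight (0.277). Calls for V1 ranged from 5 to 8 lower and 0 to 1 higher over the same fits, and 1 V1 subunit, Atp6v1g2, was higher with library totals alone, with totals without the 20 most abundant genes, without the filter, with the GC and length offset and with the replicate block, alone or with that offset. Over all genes, leaving out 1 library gave 423 to 1975 lower and 219 to 1566 higher. There were 1919 lower and 1450 higher with limma-voom, 1374 and 1120 with the block and offset together, and 444 and 216 at an adjusted p of 0.01. With library totals alone 1241 were higher and 596 lower, where the median log2 fold change of all genes was 0.07, and with totals without the 20 most abundant genes 791 were higher and 729 lower, against 585 and 877 as reported. Without the filter 1009 were higher, and with the offset 902. The cause of these differences was not tested.

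Same-number correlations of deviations from the group mean were -0.0141, -0.0874 and 0.176, and libraries did not all correlate best with their own number. With 3 libraries per group these values cannot show whether replicate numbers pair the libraries. With the replicate block 937 genes were lower and 715 higher, 3 members (Atp6ap2 no longer passed, at an edgeR adjusted p of 0.0533), 8 V1 subunits and Tfeb were lower, and Atp6v1g2 and 1 osteoclast-type gene were higher.

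With coding lengths the d-isoform difference was -15.8 percentage points, and with 1 library left out it lay between -13.1 and -12.2. The a-isoform difference lay between -6.29 and -4.29, and the V0 to V1 difference between 0.00071 and 0.11. Signs turned for Atp6v0a2 with library totals alone (0.00013), for Mitf with the offset (-0.022) and with offset and block (-0.020), and for Tfe3 with limma-voom (-0.030). With 1 library left out, Mitf lay between -0.013 and 0.0708 and Tfe3 between -0.0325 and 0.0524. None of these values passed the test. With 1 library left out of a group of 3, 2 remain, and depth allowed up to 0.115 to 0.159 CPM for a count of 0.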

Other observations

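Other transcripts of the lysosomal surface on which the pump sits were read from the same fit. The V-ATPase is known to act with the Ragulator complex and the Rag GTPases in amino acid sensing by mTORC1. Of 11 such genes 5 were lower with lipids and 0 higher, beside 6.87% and 4.58% of all genes (edgeR, 0 higher at an unadjusted p under 0.05, 0 by DESeq2), with a median log2 fold change of -0.25. Rragd, which encodes RagD, was at 29.3, 35.7 and 37.1 CPM with lipids, against 63.4, 61.9 and 63.2 CPM without, and its log2 fold change was -0.88 with an SE of 0.09 (edgeR adjusted p = 0.00011). Rragc was at -0.29 (SE 0.05, edgeR adjusted p = 0.00475) and Lamtor1 at -0.29 (SE 0.07, 0.0206). Lamtor3 and Lamtor4 were the other two. Between 2 and 8 of the 11 were lower when 1 library was left out.

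The mitochondrial ATP synthase is a rotary machine related to the V-ATPase. Of its 15 nuclear genes 1 was lower with lipids, near the 6.87% of all genes, and 0 were higher (0 by DESeq2). It was Atp5k at -0.32 (edgeR adjusted p = 0.032, lost in 6 of 16 alternatives). At an unadjusted p under 0.05 the counts were 5 lower and 0 higher (edgeR). The gene ranked 3338th of all 12767 by edgeR p, in either direction, also met that threshold. The 6.87% is therefore not the share for this count. The median log2 fold change was -0.08, and 13 of the 15 were negative, against 6484 of all 12767 tested genes. The list had 0 to 3 lower genes when 1 library was left out.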
